A study of Mus musculus with 24 samples.

Results

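Cholesterol synthesis was examined through 7 of its enzymes, Hmgcs1, Idi1, Fdft1, Sqle, Lss, Cyp51 and Dhcr7, in adrenal glands and in neuroblastoma-like tumors of transgenic mice. They were found by their gene symbols, and all 7 were present among the 21833 protein-coding genes of the expression table. The AG group were adrenal glands of CRE - mice (n = 3), and the AGM group were adrenal glands without tumors from MYCN +/-, CRE + mice (n = 5). The TI group were tumors of mice with the IGF2BP1 transgene and CRE +, of which 1 was labelled IGF2BP1 +/- and 7 IGF2BP1 +/+ (n = 8). The TIM group were tumors labelled IMP1/MYCN, CRE +, where IMP1 is another name of IGF2BP1 (n = 8). The transgenes stood in the Rosa26 locus behind a stop cassette that iCre removed, and iCre was expressed from the Dbh promoter, hence in the adrenal medulla and the peripheral sympathetic nervous system and not in the adrenal cortex. AGM mice were culled at a fixed age and tumor mice at signs of tumor burden, so age and group cannot be told apart. Per the labels, 1 TI tumor and 2 TIM tumors came from the adrenal gland and 1 TIM tumor from the spine. IGF2BP1 is an RNA-binding protein that protects many mRNAs from decay, and MYCN is a transcription factor and the classic neuroblastoma oncogene.

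Cells make cholesterol from acetyl-CoA. The mevalonate part of the pathway, which Hmgcs1 enters, yields the isoprenoid units that Idi1 interconverts. Fdft1 (squalene synthase) commits these units to sterols, Sqle oxidises squalene, Lss closes the ring to lanosterol, Cyp51 removes a methyl group from lanosterol, and Dhcr7 reduces 7-dehydrocholesterol to cholesterol in the last step of one branch. When the endoplasmic reticulum is short of sterols, the sensor protein Scap escorts the transcription factor SREBP2 (Srebf2) to the Golgi for cleavage, and SREBP2 then switches on these enzymes. The adrenal cortex, which turns cholesterol into steroid hormones, also takes it up from lipoproteins and stores it as esters, whereas chromaffin cells and neuroblasts of the sympatho-adrenal lineage make no steroid hormones.

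On GRCm39 (GENCODE M39), Hmgcs1 (ENSMUSG00000093930) lies at chr13:120151915-120170470 on the plus strand and Idi1 (ENSMUSG00000058258) at chr13:8935537-8942487 on the plus strand. Fdft1 (ENSMUSG00000021273) lies at chr14:63382189-63417027 on the minus strand, Sqle (ENSMUSG00000022351) at chr15:59186869-59203043 on the plus strand and Lss (ENSMUSG00000033105) at chr10:76367298-76392976 on the plus strand. Cyp51 (ENSMUSG00000001467) lies at chr5:4123416-4154751 on the minus strand and Dhcr7 (ENSMUSG00000058454) at chr7:143376740-143402149 on the plus strand. Hmgcs1 and Idi1 share a chromosome, and no pair of the 7 genes are neighbours.

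RefSeq promoter sequences (GRCm38.p6, 250 bases before to 50 after a start site) were found for 5 of the 7 enzymes, Hmgcs1, Idi1, Lss, Cyp51 and Dhcr7. Those of 3 enzymes with unlike patterns between glands and tumors are shown here, 5′ to 3′ on the strand of the gene. Capitals mark CCAAT in either orientation, the letters bound by NF-Y, which is known to act beside SREBP2, and TCACNCCAC, a form of the sterol regulatory element; the motifs did not overlap. The Hmgcs1 window is chr13:119690101-119690400 on the plus strand, the Dhcr7 window, at the third of its listed start sites, chr7:143829964-143830263 on the plus strand, and the Cyp51 window chr5:4104648-4104947 on the minus strand.
Hmgcs1: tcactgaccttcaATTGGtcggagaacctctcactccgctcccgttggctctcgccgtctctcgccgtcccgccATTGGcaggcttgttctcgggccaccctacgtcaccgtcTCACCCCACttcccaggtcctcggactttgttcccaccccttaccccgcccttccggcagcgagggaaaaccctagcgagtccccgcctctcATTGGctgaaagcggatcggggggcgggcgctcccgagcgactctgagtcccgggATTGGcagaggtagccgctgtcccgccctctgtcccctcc
Dhcr7: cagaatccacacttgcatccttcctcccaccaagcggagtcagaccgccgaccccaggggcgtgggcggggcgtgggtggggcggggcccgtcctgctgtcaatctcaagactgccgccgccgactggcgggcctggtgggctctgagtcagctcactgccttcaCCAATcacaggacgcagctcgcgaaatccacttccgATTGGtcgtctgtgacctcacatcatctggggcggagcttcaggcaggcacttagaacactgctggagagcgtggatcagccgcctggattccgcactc
Cyp51: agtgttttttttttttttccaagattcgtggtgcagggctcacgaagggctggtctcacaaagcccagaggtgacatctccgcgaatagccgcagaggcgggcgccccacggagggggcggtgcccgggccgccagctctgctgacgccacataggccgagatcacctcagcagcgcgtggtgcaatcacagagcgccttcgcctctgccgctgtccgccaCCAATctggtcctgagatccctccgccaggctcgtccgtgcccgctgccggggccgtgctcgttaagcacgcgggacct
The letters CCAAT stood in at least 1 promoter of all 5 matched enzymes, 4 times in Hmgcs1 and 2 times in the Dhcr7 window shown, while the windows at the other two listed Dhcr7 start sites held none. Of the 32851 mouse promoters of the same length, 37.4% held it, which is a share of single promoters, whereas the count over enzymes takes any window of an enzyme. TCACNCCAC stood once in the Hmgcs1 window and in none of the windows of the other 4 enzymes, and 1.24% of all promoters held it. A match is a description of the letters and not of binding.

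Before the enzymes were compared, the tissue labels were checked against marker genes. The summed FPKM of 12 adrenal cortex markers was 699 to 729 in AG and 5024 to 6516 in AGM, and in the tumors it was 0.606 to 18.1 (TI) and 0.800 to 14.8 (TIM). Of the 12 markers, 10 were at 1 FPKM or more in every AG library. Cyp11b2, the aldosterone synthase of the outermost cortex, was at most 0.0631 FPKM in AG but 311 to 665 FPKM in AGM. Of 12 markers of chromaffin cells and sympathetic neuroblasts, 8 were at 1 FPKM or more in every TI library and 8 in every TIM library, beside 11 in every AG and 11 in every AGM library. AGM libraries 4 and 5 stood apart by liver transcripts, with albumin (Alb) at 609.5 and 677 FPKM against 0.697 to 20.9 FPKM in the other AGM libraries, so results that rest on them are given with and without them. Pancreatic acinar markers, which summed to 2.16 to 2.50 FPKM in AG and 0.218 to 3.396 FPKM in TI, reached 28352 to 428309 FPKM in all 5 AGM libraries (highest in AGM library 2), 24226 to 3589654 FPKM in TIM libraries 1 to 4 and 2793 FPKM in TIM library 8, against 0.419 to 2.02 FPKM in TIM libraries 5 to 7. TIM results of the enzymes are therefore also given without these 5 TIM libraries where a call was lost. In AGM, 2 of the 8 acinar markers were at 1 FPKM or more in every library, and 5 were below 0.1 FPKM in every library. Hence the term acinar transcripts below names high values of some of these genes and not pancreatic tissue, which was not tested. TIM library 5, with a low acinar sum, also held a gene at 898714 FPKM. TIM library 5 stood apart by its proliferation markers, which summed to 1.87 FPKM, within the 1.34 to 5.54 FPKM of the glands, against 8.65 to 145 FPKM in the other tumors, and it had the highest chromaffin and neuroblast (4779 FPKM), adipocyte (58.7 FPKM) and Schwann cell and oligodendrocyte (59.5 FPKM) sums of the tumors. Per the labels, all AG samples were sequenced in run 1 and all AGM samples in run 2, while the TI samples came from run 1 (6 samples), run 2 (1) and run 3 (1), and the TIM samples from run 2 (3) and run 3 (5). AG shares no run with either AGM or TIM, and a difference between runs cannot be told apart from theirs. Outside 126 genes above 1000 FPKM, the libraries held 12334076 to 23683176 reads, as recovered from batch-corrected values. Values above 1000 FPKM occurred in AGM and TIM only. With these genes, the recovered totals reached 1170004708 in AGM library 3 and 888626365 in TIM library 4, against at most 21353172 in AG and TI. These totals stem from values after batch correction and are not counts of sequenced reads. Libraries are numbered within a group only to name them.

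**Figure D1:**
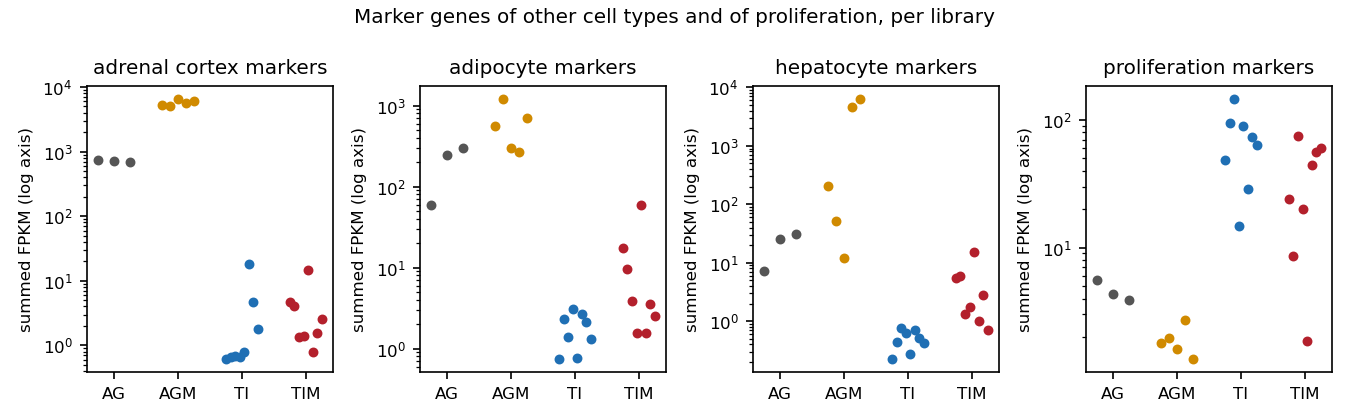
Summed FPKM (log axis) of marker genes of adrenal cortex, adipocytes, hepatocytes and proliferation; each point is 1 library of AG, AGM, TI or TIM. Cortex markers were at 699 to 729 in AG, at 5024 to 6516 in AGM and at no more than 18.1 in any tumor; AGM libraries 4 and 5 are the points at the top of the hepatocyte panel.

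The 7 enzymes did not move as a block between glands and tumors. With all tumors set against all glands, Sqle and Cyp51 rose, Dhcr7 and Hmgcs1 fell, and Fdft1, Idi1 and Lss did not pass the test (limma on log2(FPKM + 1), FDR below 0.05 over 10171 genes). Tumors and glands differed widely, as 34.3% of all tested genes were higher and 37.3% were lower in tumors, so 2 of 7 in each direction was close to the background. All 7 enzymes passed the filter of 1 FPKM in at least 3 libraries. The median difference of the 7 was -0.10 on the log2(FPKM + 1) scale, beside -0.00050 for all tested genes.

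**Figure D2:**
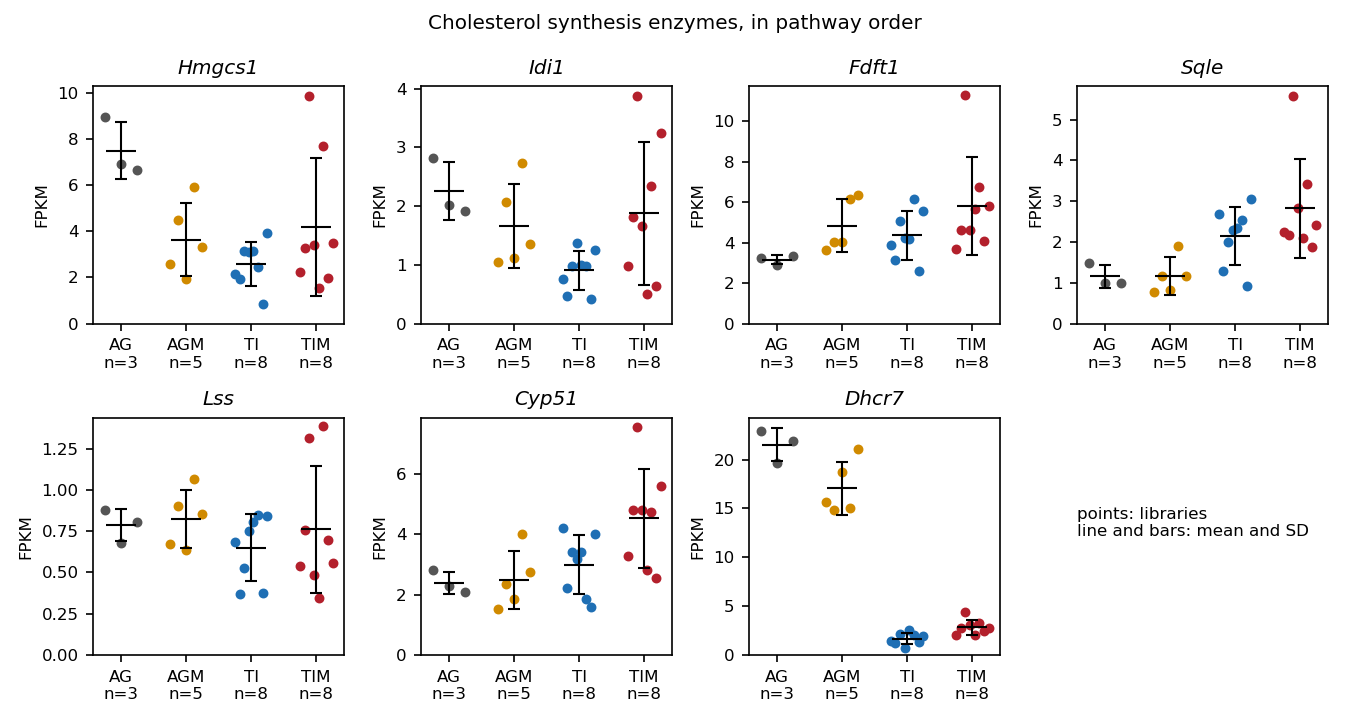
FPKM of the 7 enzymes in pathway order, with 1 point for each library and the mean and SD of each group (AG n = 3, AGM n = 5, TI n = 8, TIM n = 8). Dhcr7 separates the 8 glands (14.9 to 23.0 FPKM) from the 16 tumors (0.731 to 4.42 FPKM), while glands and tumors overlap for each of the other 6 enzymes.

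Dhcr7, the enzyme of the last reduction, had by far the largest difference. Its level was 23.0, 19.7 and 21.9 FPKM in the AG libraries, and 15.6, 14.9, 18.7, 15.1 and 21.0 FPKM in the AGM libraries. In TI it ranged from 0.731 to 2.58 FPKM with a median of 1.69, and in TIM from 2.04 to 4.42 FPKM with a median of 2.73. No tumor came near a gland. The mean was 21.5 FPKM ± 1.67 (SD, n = 3) in AG and 1.68 FPKM ± 0.598 (SD, n = 8) in TI, a 12.8-fold lower level. In TIM it was 2.86 FPKM ± 0.765 (SD, n = 8), 7.53-fold below AG. On the log2(FPKM + 1) scale, Dhcr7 differed by -3.10 in TI vs AG (SE 0.19, limma FDR 2.4e-12) and by -2.57 in TIM vs AG (SE 0.19, limma FDR 6.81e-11). Against AGM, whose cortex markers were several-fold above those of AG, the differences were -2.77 for TI (limma FDR 3.61e-13) and -2.24 for TIM (limma FDR 2.26e-11). In bulk tissue, fewer cells of a type that expresses a gene and less RNA per cell cannot be told apart. All 12 adrenal cortex markers fell with Dhcr7 in tumors vs glands, and their part in the result was not tested. In AGM vs AG, 11 of the 12 cortex markers were higher, and the mean of Dhcr7 was 17.1 FPKM ± 2.71 (SD, n = 5) in AGM. This lower mean of Dhcr7 did not pass the test, and group and sequencing run cannot be told apart in AGM vs AG. Dhcr7 also differed between the tumor groups. It was higher in TIM than in TI by 0.54 (SE 0.14, limma FDR 0.00816), and 5 of 8 TIM libraries exceeded every TI library. Without the 5 TIM libraries with acinar transcripts it was at 0.46 and did not pass (limma FDR 0.121).

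Hmgcs1, which makes HMG-CoA at the entry of the mevalonate pathway, was 8.95, 6.94 and 6.65 FPKM in the AG libraries. The AGM libraries were at 2.59, 4.50, 1.91, 5.93 and 3.30 FPKM, all below every AG library. TI ranged from 0.868 to 3.93 FPKM with a median of 2.77, and TIM from 1.56 to 9.86 FPKM with a median of 3.35. Hence the high group was AG alone, and TIM libraries 3 and 6, at 9.86 and 7.70 FPKM, reached its level. It fell in TI vs AG, with a difference of -1.29 on the log2(FPKM + 1) scale (SE 0.36, limma FDR 0.0044). In TIM vs AG the difference was -0.88 (SE 0.36, limma FDR 0.0438), and this call was kept in 17 of 32 alternative analyses, with an FDR of up to 0.156. The AGM vs AG difference of -0.93 (SE 0.39, limma FDR 0.0746) did not pass the test. In tumors vs glands it was -0.62 (limma FDR 0.0222), and -0.52 without AGM libraries 4 and 5, where the FDR was 0.0762; quantile normalization (FDR 0.0608) and leaving out AG library 1 also ended this call.

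Idi1, the isopentenyl diphosphate isomerase, was 2.82, 2.01 and 1.92 FPKM in the AG libraries and 1.05, 2.07, 1.12, 2.73 and 1.35 FPKM in the AGM libraries. It ranged from 0.420 to 1.36 FPKM in TI with a median of 0.981, below all 3 AG libraries, and from 0.495 to 3.87 FPKM in TIM with a median of 1.73. The TI vs AG difference was -0.78 (SE 0.28, limma FDR 0.024), and it was -0.66 (limma FDR 0.115) at its smallest when single libraries were left out, where the call was lost without AG library 1 or without AG library 2. TIM overlapped with every other group, and the TIM vs AG difference of -0.28 (limma FDR 0.431) did not pass the test.

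Fdft1, the squalene synthase, was 3.23, 2.92 and 3.32 FPKM in the AG libraries and 3.64, 4.02, 4.01, 6.14 and 6.37 FPKM in the AGM libraries. Its range was 2.59 to 6.16 FPKM in TI and 3.69 to 11.3 FPKM in TIM, with medians of 4.20 and 5.15. Every AGM and every TIM library lay above all AG libraries, while TI overlapped with AG. TIM vs AG passed the test (0.65, SE 0.24, limma FDR 0.0249), and AGM vs AG (0.46, limma FDR 0.181) and TI vs AG (0.33, limma FDR 0.249) did not.

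Sqle, the squalene epoxidase and a rate-limiting step of the pathway, was the enzyme that rose most. It was 1.48, 0.988 and 1.001 FPKM in the AG libraries and 0.763, 1.17, 0.818, 1.90 and 1.17 FPKM in the AGM libraries. It ranged from 0.929 to 3.06 FPKM in TI with a median of 2.33, and from 1.88 to 5.58 FPKM in TIM with a median of 2.33. All 8 TIM libraries exceeded every AG library, and 13 of the 16 tumors exceeded every gland. Tumors vs glands gave 0.65 on the log2(FPKM + 1) scale (SE 0.15, limma FDR 0.000445), and the call was kept in all 31 alternative analyses that tested Sqle. TIM was above AG by 0.79 (SE 0.23, limma FDR 0.00584) and above AGM by 0.79 (SE 0.19, limma FDR 0.000997), and TI was above AGM by 0.52 (SE 0.19, limma FDR 0.0176). TI vs AG, at 0.51 (limma FDR 0.0606), did not pass the test.

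Cyp51, the lanosterol demethylase, was 2.81, 2.27 and 2.104 FPKM in the AG libraries and 1.52, 2.37, 1.86, 4.01 and 2.75 FPKM in the AGM libraries. TI ranged from 1.61 to 4.20 FPKM with a median of 3.30, and TIM from 2.57 to 7.57 FPKM with a median of 4.77. The groups overlapped, although 7 of 8 TIM libraries lay above all AG libraries. Cyp51 was higher in TIM than in AG by 0.65 (SE 0.25, limma FDR 0.0321) and than in AGM by 0.65 (SE 0.21, limma FDR 0.0102). The tumors vs glands difference was 0.42 (SE 0.16, limma FDR 0.0248), and the FDR reached up to 0.0645 when AG library 2, AG library 3 or AGM library 1 was left out. Without TIM libraries 1 to 4 and 8, which hold acinar transcripts, Cyp51 passed none of these tests, at 0.34 in TIM vs AG (limma FDR 0.338), 0.33 in TIM vs AGM (limma FDR 0.264) and 0.26 in tumors vs glands (limma FDR 0.171). The TIM vs TI difference of 0.46 (limma FDR 0.0753) and the TI vs AG difference of 0.20 (limma FDR 0.546) did not pass the test.

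Lss, the lanosterol synthase, had the lowest FPKM of the 7 enzymes in most libraries and passed no test. The AG libraries held 0.875, 0.681 and 0.803 FPKM, and the AGM libraries 0.670, 0.899, 0.639, 1.06 and 0.851 FPKM. TI ranged from 0.372 to 0.850 FPKM and TIM from 0.347 to 1.39 FPKM, with medians of 0.717 and 0.627. Its tumors vs glands difference was -0.10 (SE 0.10, limma FDR 0.361), with 301 to 1346 reads behind each tumor value.

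Because Dhcr7 fell while the other enzymes stayed in a narrower range, the order of levels changed. FPKM is per gene length, so ranks and shares depend on the lengths used, from 3505 bases (Idi1) to 10787 bases (Lss). Whether these are the lengths of the expressed transcripts is not known. In AG library 1, Lss had 1013 reads and Sqle 878, although the FPKM of Lss was lower. Dhcr7 was the highest of the 7 in all 8 glands and held rank 3 to 7 in the 16 tumors, where Fdft1 held rank 1 or 2. Dhcr7 made up 53.3% to 58.1% of the summed FPKM of the 7 in AG and 40.9% to 64.4% in AGM, but only 4.67% to 16.2% among TI tumors and 10.1% to 17.5% among TIM tumors. The median summed FPKM of the other 6 enzymes was 15.8 for AG and 15.0 for AGM, against 14.9 for TI and 17.6 for TIM. Its ranges overlapped in all groups, from 6.79 FPKM in the lowest TI library to 39.5 FPKM in TIM library 3.

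Counted by group, 0 of 7 enzymes rose and 3 fell (Dhcr7, Hmgcs1 and Idi1) in TI vs AG, where 24.6% of all tested genes were higher and 27.7% lower. In TIM vs AG, 3 rose (Sqle, Fdft1 and Cyp51) and 2 fell (Dhcr7 and Hmgcs1), where 22.5% were higher and 28.5% lower. In TI vs AGM, 1 rose (Sqle) and 1 fell (Dhcr7), beside 36.2% of all tested genes in each direction. In TIM vs AGM, 2 rose (Sqle and Cyp51) and 1 fell (Dhcr7), beside 31.9% higher and 33.4% lower. TI vs AG and TIM vs AG share the 3 AG libraries, and leaving out single libraries left 2 to 5 enzymes called in TIM vs AG (2 without AG library 2 or AG library 3, and 3 without AG library 1). Fdft1 lost its TIM vs AG call without any 1 of the AG libraries (FDR up to 0.0881), and Cyp51 without AG library 2, AG library 3 or TIM library 3 (FDR up to 0.115).

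**Figure D3:**
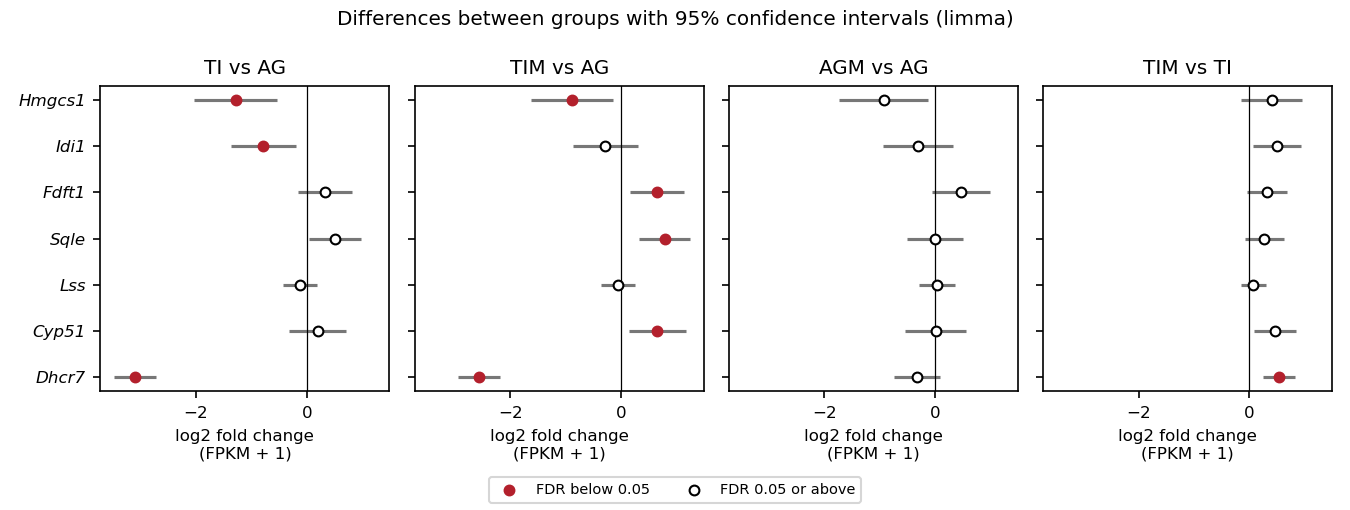
Differences of the 7 enzymes on the log2(FPKM + 1) scale, with 1 panel for each of 4 contrasts; points are limma estimates, lines their 95% confidence intervals, and filled points passed an FDR below 0.05. Dhcr7 lies at -3.10 and -2.57 in the tumor contrasts, and no enzyme passed in AGM vs AG.

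Groups with and without the MYCN transgene were compared in glands and in tumors. The tumor groups also differed in IGF2BP1 dose, since 7 of 8 TI tumors were labelled IGF2BP1 +/+, whereas genotyping in the study found no wild-type Rosa26 locus beside the IGF2BP1 and MYCN transgenes of the TIM mice. The effects of IGF2BP1 dose and of MYCN therefore cannot be told apart in TIM vs TI. In AGM vs AG, limma called 0 of the 7 enzymes, where 14.6% of all tested genes were higher and 14% lower. At an unadjusted p under 0.05, 1 enzyme passed, Hmgcs1, and limma-voom on recovered reads also called 0, whereas a fit of only the groups compared called 2 (Hmgcs1 and Fdft1) and quantile normalization called 2 (Hmgcs1 and Dhcr7). In TIM vs TI, 1 rose (Dhcr7) and 0 fell, where 10% of all tested genes were higher and 12.9% lower. All 7 estimates were above 0 in TIM vs TI, from 0.07 for Lss to 0.54 for Dhcr7, with a median of 0.40 beside -0.0040 for all tested genes. TIM library 3 was the highest of the 24 libraries for Hmgcs1, Sqle, Fdft1, Cyp51 and Idi1. Without it, the 7 estimates ranged from 0.014 to 0.46 with a median of 0.23, and Dhcr7, at 0.46, passed (limma FDR 0.0152). Without TIM libraries 1 to 4 and 8 with acinar transcripts, the median was 0.15 and limma called 0 of the 7 (Dhcr7 0.46, FDR 0.121). Without TIM library 5 the median was 0.52 and 2 enzymes were called. The difference between TIM vs TI and AGM vs AG passed for Dhcr7 (0.86, SE 0.24, limma FDR 0.0233), and for 3.85% of all tested genes in the higher and 6.15% in the lower direction. This call was kept in 25 of 31 alternative analyses, with an FDR of up to 0.122, and it was lost with a pseudocount of 0.1, limma-voom or recomputed FPKM, without AG library 1 or AG library 3, and without the 5 TIM libraries with acinar transcripts. For Hmgcs1 that difference was 1.33 (limma FDR 0.074).

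The rest of the pathway was described from lists of sterol genes. Of 6 other mevalonate and isoprenoid enzymes, 5 were tested in tumors vs glands; 1 rose, Acat2 (0.88, limma FDR 0.000274), which makes acetoacetyl-CoA, and 1 fell, Mvk (-0.30, limma FDR 0.0104), the mevalonate kinase. Without AGM libraries 4 and 5, Mvk was at -0.24 (limma FDR 0.0556). Mvk fell in TI vs AG (-0.46, limma FDR 0.0135), but it did not pass in TIM vs AG (-0.07, limma FDR 0.737). Fdps, the farnesyl diphosphate synthase, did not pass the filter, and reads of this gene are uncertain since it has near-identical processed copies. Of 7 other enzymes after squalene, 6 were tested; 1 rose, Lbr (0.33), a sterol reductase that is also a protein of the nuclear envelope, and 3 fell, Msmo1 (-0.92), which demethylates sterols after Cyp51, Sc5d (-0.67), a desaturase that acts just before Dhcr7, and Ebp (-0.65), a sterol isomerase. The median of these 6 was -0.42. Against AG alone, limma called 1 of the 6 in TI (Msmo1, lower) and 0 in TIM. Against AGM, 1 was higher and 4 were lower in TI, and 1 was higher and 3 were lower in TIM. The pooled calls for these enzymes thus rest largely on the AGM libraries.

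**Figure D4:**
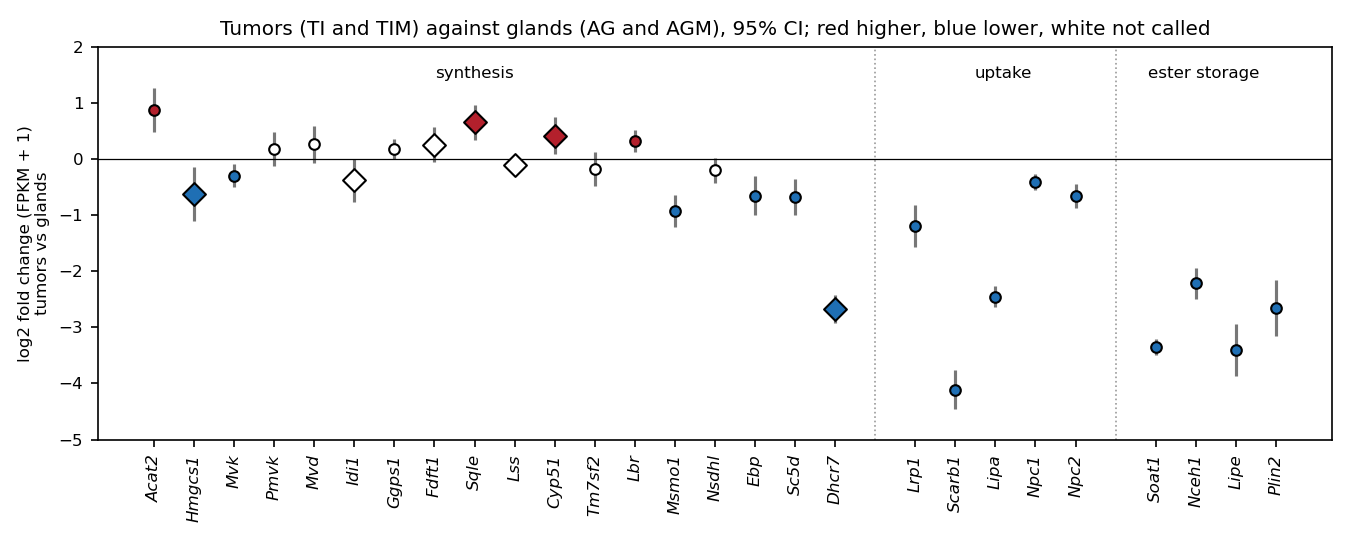
Tumors vs glands differences on the log2(FPKM + 1) scale with 95% confidence intervals for enzymes of cholesterol synthesis in pathway order, genes of lipoprotein uptake and genes of ester storage; diamonds are the 7 enzymes, red passed the test as higher, blue as lower and white did not pass. Synthesis genes lie on both sides of 0 and Dhcr7 lies at -2.67, whereas all uptake and storage genes shown lie under 0.

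Uptake of cholesterol differed in a uniform direction. Of 8 genes of lipoprotein uptake, 5 were tested and all 5 fell in tumors vs glands, with a median of -1.19. The largest fall was in Scarb1, the HDL receptor that feeds cholesterol esters to steroid-making cells, from 27.1 to 59.4 FPKM in glands to 0.451 to 3.44 FPKM in tumors (-4.11, limma FDR 5.8e-16). Lipa, the lysosomal acid lipase that frees cholesterol from its esters, fell by 2.45, and the endocytic receptor Lrp1 fell by 1.19. Npc2 (-0.65) and Npc1 (-0.41), which export cholesterol from lysosomes, had smaller falls. In TIM vs TI, limma called 0 of the 5 uptake genes, and 0 of them had an unadjusted p under 0.05. All 4 genes listed for cholesterol ester storage had lower mRNA in tumors vs glands. Among them were Soat1 (-3.34), which makes the esters, the hormone-sensitive lipase Lipe (-3.41) and the ester hydrolase Nceh1. The esters themselves were not measured. The 12 cortex markers all fell (median -5.24), as did the 7 tested hepatocyte markers (median -2.92) and the 8 endothelial markers (median -0.93). The 8 adipocyte markers, which also all fell, summed to 58.9 to 1204 FPKM in glands and to 0.735 to 58.7 FPKM in tumors. The cortex, adipocyte, hepatocyte and endothelial markers moved with the uptake and storage lists, and their part in these falls was not tested.

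Genes of sterol sensing were mixed. Of 10 listed genes, 8 were tested in tumors vs glands; 1 rose, Srebf2 (0.49, limma FDR 0.00269), and 4 fell, Srebf1 (-2.15), Insig1 (-1.06), Scap (-0.75) and Mbtps1 (-0.30). Srebf2 rose from 3.31 to 4.95 FPKM in glands to 3.47 to 12.5 FPKM in tumors. Insig1, which retains Scap in the endoplasmic reticulum and is itself a SREBP target, fell in TI vs AG (-1.18, limma FDR 0.00821) and was higher in TIM than in TI (0.78, limma FDR 0.0372). All 8 fatty acid synthesis genes regulated by SREBP1 fell in tumors vs glands, with a median of -1.69, led by Scd1 (-6.29) and Me1 (-4.90). Adipocyte and hepatocyte markers fell in the same contrast, and their part in these falls was not tested. Of 6 efflux and LXR genes, 1 rose, Abcg1 (0.43), and 4 fell, Lpcat3, Nr1h3, Abca1 and Nr1h2. Abcg1 was higher in TI vs AG (0.73, limma FDR 0.0012), whereas limma called 0 of the 6 genes higher in TI vs AGM and 0 in TIM vs AGM. None of the calls given here for the sterol and fatty acid lists in tumors vs glands was lost or turned by quantile normalization, limma-voom or FPKM recomputed without the genes above 1000 FPKM.

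In TIM vs TI, the sterol genes beside the 7 enzymes that rose were Mvk (0.39), Mvd (0.61), Msmo1 (0.62), Nsdhl (0.47), Insig1 (0.78), Scap (0.43) and Apoe (1.41), and those that fell were Lbr (-0.33) and Nr1h2 (-0.61). Of all tested genes, 10% were higher and 12.9% lower in TIM vs TI. These sterol genes were not examined without TIM library 3 or without the 5 TIM libraries with acinar transcripts. The Apoe difference was 0.81 (FDR 0.0784) under quantile normalization, and that of Lbr -0.50 (FDR 0.0571) in recomputed FPKM. In AGM vs AG, 4 of 6 efflux and LXR genes rose, namely Apoe (2.13, limma FDR 0.0188), an apolipoprotein, Lpcat3 (1.01), a phospholipid acyltransferase, the nuclear receptor Nr1h3 (0.78) and the sterol transporter Abcg1 (0.65). Ebp (0.79, limma FDR 0.0347) and Nceh1 (0.65), a cholesterol ester hydrolase, also rose, whereas Acly (-0.95), which makes cytosolic acetyl-CoA, Ubxn4 (-0.43) and Mbtps1 (-0.37) fell, and 0 of the 5 uptake genes passed the test. Without AGM libraries 4 and 5, Apoe (1.09, FDR 0.207), Nr1h3 (0.36, FDR 0.201), Ebp (0.33, FDR 0.346), Ubxn4 (-0.40, FDR 0.0923) and Mbtps1 (-0.35, FDR 0.135) did not pass. Quantile normalization put Apoe at 0.038 (FDR 0.971), and it also lost Ebp (FDR 0.0687) and Nceh1 (FDR 0.169) and called Lipa of the uptake list (-0.50, FDR 0.00827). Nceh1 and Mbtps1 did not pass with limma-voom (FDR 0.0947 and 0.0752), nor did they or Nr1h3 in recomputed FPKM (FDR 0.132, 0.0918 and 0.0660).

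Within a group the enzymes varied together from library to library. Over deviations from the group means in 24 libraries, Pearson's r between pairs of the 7 had a median of 0.69, ranging from 0.37 to 0.87 over 21 pairs. For the 15 pairs without Dhcr7 the median was 0.80, and for the 6 pairs with Dhcr7 it was 0.48. The pairs with Dhcr7 had a median of 0.34 in the TI libraries alone and of 0.83 in the TIM libraries alone, each over 8 libraries. Without TIM library 3 the median was 0.60 over all 21 pairs, 0.74 over the pairs without Dhcr7 and 0.31 over the pairs with Dhcr7 (0.20 to 0.47). When all 24 libraries were taken without removing group means, r between Sqle and Dhcr7 was -0.55 and that between Hmgcs1 and Idi1 was 0.87. The points share the normalization of their libraries, and the values are given as a description.

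**Figure D5:**
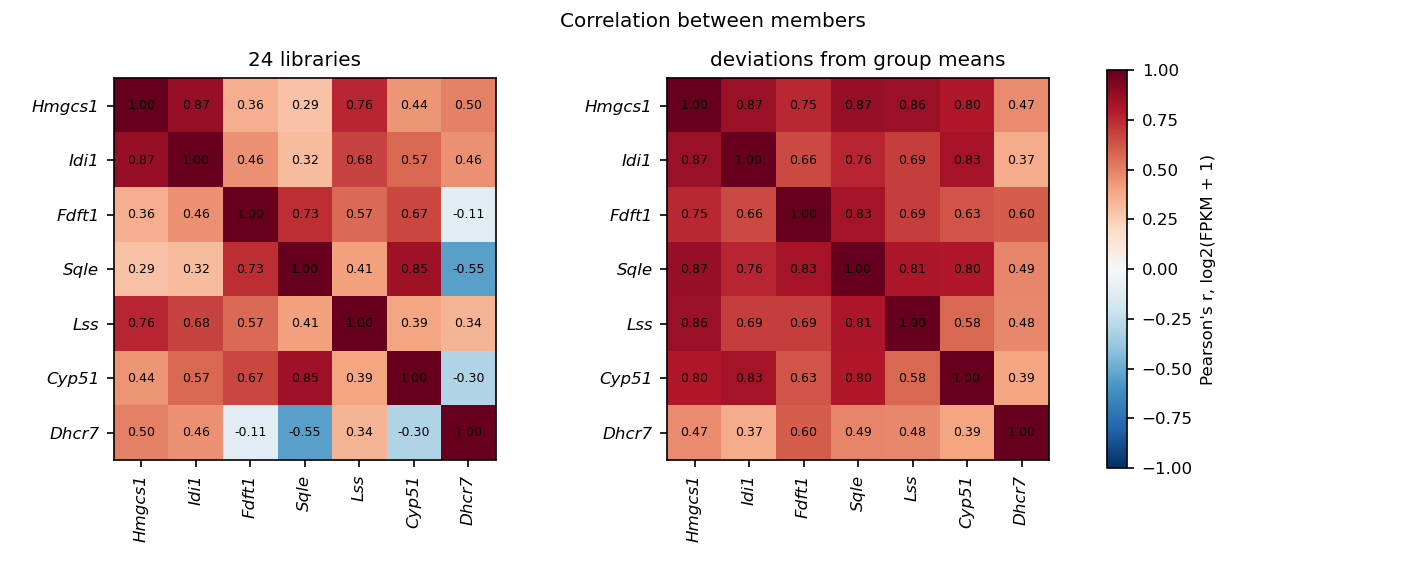
Pearson's r between the 7 enzymes over 24 libraries, on log2(FPKM + 1) values (left) and on deviations from group means (right). Dhcr7 has r below 0 with Sqle, Cyp51 and Fdft1 on the left (-0.55, -0.30 and -0.11) and above 0 with all enzymes on the right (0.37 to 0.60).

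The genes most like the 7 enzymes within groups were ranked among 10164 genes by r with the mean of their scaled levels. Stard4 (0.88), a sterol transfer protein, held rank 1 and Mvd (0.84), the mevalonate diphosphate decarboxylase, rank 3. Pstpip2, Tars, Zdhhc6, Jagn1, Slc25a37 and C1qbp held ranks 5 to 10, with r from 0.79 to 0.75. Nsdhl held rank 34, Msmo1 rank 76 and Sc5d rank 83, whereas Scarb1 held rank 5431 (r = -0.09). Thus Stard4, whose mean level lay between 0.694 FPKM (TIM) and 0.823 FPKM (AG), passed no test between groups and yet followed the enzymes most closely from library to library. Over the 24 libraries without removing group means, the 10 genes were Stard4 (0.79), Mvd (0.78), Emc3 (0.77), Pstpip2, C1qbp, Xpot, Jagn1, Ogg1, Tars and Gart (0.67).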

How the data were processed

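Poly(A)-enriched RNA-seq of 24 mouse samples was analysed. The authors trimmed reads with cutadapt 2.8, aligned them with HISAT2 2.1.0 to mm39 and, per the submitters' processing notes, counted with featureCounts 2.0.0. The authors then corrected batches with ComBat-seq, scaled libraries by TMM in edgeR 3.40 and deposited FPKM (fragments scaled by gene length in kilobases and by library size) of 21833 genes. The library size that the values imply was not the recovered total. It was 107302734 against 17467197 recovered reads in AG library 1, and 80281938 against 1170004708 in AGM library 3. FPKM levels and the filter of 1 FPKM are therefore not on the scale of the recovered reads. The annotation used is not given in the sources used here. Batch-corrected values can move far for genes with few reads in a batch. The 9 deposited columns of the authors' comparisons (log2 fold changes, p-values and FDR) were not used.

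Expression columns were assigned to groups by name. They carried no sample number, so run, zygosity and tumor location of a column are unknown, and no comparison within a run was possible. The labels do not say whether samples of a group came from separate mice or litters. The study reports more tumors than mice for IGF2BP1/MYCN, so TIM tumors may share a mouse. Hence p-values measure the spread between these samples, as it stood after batch correction. No columns held identical values. Values times gene length were whole reads for 100.0% of entries (tolerance 0.01), giving 12334076 to 23683176 reads per library outside the 126 genes above 1000 FPKM. Statements on reads cover counting error only.

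As planned for FPKM, limma 3.58.1 in R 4.3.3 (lmFit, eBayes with trend) was fitted to log2(FPKM + 1) of the 10171 genes that reached 1 FPKM in 3 or more libraries. The 4 groups shared 1 spread over 24 libraries, without covariates. Fold changes on this scale understate those of low genes, and folds of means are ratios of FPKM. P-values were adjusted by Benjamini-Hochberg over all tested genes, with an FDR below 0.05 as threshold. Alternatives were a pseudocount of 0.1, no filter, at least 1 FPKM in every library, only the groups compared, limma-voom on recovered reads, FPKM recomputed without genes above 1000 FPKM, quantile normalization and leaving out each library. Analyses without AGM libraries 4 and 5, and without TIM libraries 1 to 4 and 8, were added after seeing the data. The code was tested on simulated data.

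The 7 enzymes, the gene lists and the marker lists were chosen with earlier results of these data known. Named genes are the 7 enzymes, genes of the fixed lists and the 10 genes most like the enzymes by Pearson's r. Some genes of these lists are not reported here, and list counts in the text leave them out. Marker lists of further cell types were also summed. Endothelial sums were 20.6 to 27.2 FPKM in glands and 2.99 to 13.0 FPKM in tumors except TI library 4 (26.6 FPKM). The sums of 3 lists overlapped more widely between tumors and glands, at 22.0 to 161 FPKM for macrophages, 4.51 to 59.5 FPKM for Schwann cells and oligodendrocytes, and 6.18 to 82.9 FPKM for fibroblasts. Chromaffin and neuroblast markers summed to 144 to 2557 FPKM in glands and 210 to 4779 FPKM in tumors.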

Additional observations from a re-analysis of the deposited data

Results flagged for a closer look

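A single result was singled out among the enzymes, because an effect differed between groups by a test of the difference itself. Dhcr7 was higher in TIM than in TI by 0.54 but was at -0.33 in AGM vs AG, and the difference between these contrasts was 0.86 on the log2(FPKM + 1) scale (SE 0.24, limma FDR 0.0233). In the glands, sequencing run and group cannot be told apart, and in TIM vs TI neither can MYCN and IGF2BP1 dose, since 7 of 8 TI tumors were IGF2BP1 +/+ and the TIM mice carried both transgenes. Without TIM libraries 1 to 4 and 8, which hold acinar transcripts, the difference was 0.78 (limma FDR 0.0916). The tumor levels of Dhcr7 were 0.731 to 4.42 FPKM and the gland levels 14.9 to 23.0 FPKM. In 21 checks of single libraries within the AGM, TI and TIM groups, no library stood far enough from its group to be named.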

How the results depend on the processing

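All 159 alternative fits of Dhcr7 in the gland-tumor contrasts kept its direction and call, at -3.77 to -1.82 (FDR up to 4.01e-07). Requiring 1 FPKM in every library left 3464 genes and 2 enzymes, Fdft1 and Cyp51, so fewer could be called: 1 in tumors vs glands, 0 in TI vs AG, 2 in TIM vs AG, 0 in TIM vs TI, 1 in TIM vs AGM, 0 in TI vs AGM and 0 in the difference of TIM vs TI and AGM vs AG. With only the groups compared, 2 were called in TIM vs AG and 2 in AGM vs AG; quantile normalization called 2 in AGM vs AG and 2 in the difference, and put the median of all genes at -0.15 in AGM vs AG, 0.16 in TIM vs AGM, 0.17 in TI vs AGM and 0.11 in the difference, against -0.0023, 0.033, 0.0088 and -0.011 without it. Dhcr7 in AGM vs AG was -0.86 there. A pseudocount of 0.1, limma-voom and recomputed FPKM each called 0 in the difference. Without TIM libraries 1 to 4 and 8, which hold acinar transcripts, 0 were called in TIM vs TI and 0 in the difference. The causes were not tested.

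When each library was left out, the enzymes called numbered 2 to 5 in TIM vs AG, 0 to 1 in AGM vs AG (1 without AGM library 4 or TIM library 3), 1 to 3 in TIM vs TI (2 without TIM library 5, 3 without TIM library 7), 1 to 2 in TI vs AGM (1 without AGM library 1) and 0 to 2 in the difference (2 without TIM library 5, 0 without AG library 1 or 3).

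Signs turned for values near 0 that passed no test. Cyp51 in AGM vs AG was -0.0049 with a pseudocount of 0.1, -0.0053 with limma-voom, -0.094 with quantile normalization and -0.22 without AGM libraries 4 and 5. Lss in AGM vs AG was -0.042 with quantile normalization and -0.043 without those libraries. Idi1 in TIM vs AGM was -0.019 with a pseudocount of 0.1, -0.079 with limma-voom and -0.37 without those TIM libraries, where Hmgcs1 was -0.13. Fdft1 was 0.10 with quantile normalization and 0.098 without those libraries in TI vs AGM, and 0.0045 and 0.082 in the difference. With single libraries left out, Lss ranged from -0.11 to 0.0031 in TIM vs AG, -0.019 to 0.064 in AGM vs AG and -0.019 to 0.098 in the difference, Sqle from -0.12 to 0.096 and Cyp51 from -0.13 to 0.12 in AGM vs AG, and Hmgcs1 from -0.13 to 0.21 and Idi1 from -0.088 to 0.17 in TIM vs AGM. In all, 1929 alternative results were rated as unchanged, which includes counts of enzymes that stayed close to the main count. Among results of single enzymes, 42 lost a call, 24 gained one and 35 turned sign, and 28 counts moved further. No paired analysis was possible because the columns carry no replicate number.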

Other observations

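Of the 10 genes most like the 7 enzymes over the 24 libraries, 3 lie close together on chromosome 6 (GRCm39), namely Ogg1 (chr6:113303854-113312054), Jagn1 (chr6:113419530-113425191) and Emc3 (chr6:113486770-113508628). Their r with the enzymes was 0.70, 0.70 and 0.77. They were found after their values were seen. Ogg1 is a DNA glycosylase that removes oxidised guanine, and Jagn1 and Emc3 are proteins of the endoplasmic reticulum. With Spearman's rho in place of Pearson's r, 3 of these 10 genes stayed among the 10 most alike over 24 libraries, Stard4, Mvd and C1qbp, while 8 of 10 stayed within groups.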
